A study of Mus musculus with 6 samples.

Results

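The sebaceous gland lipid synthesis genes Scd1, Scd3, Awat1, Awat2, Dgat2l6, Elovl3, Far2, Mc5r, Soat1 and Fasn were followed in skin tumours of male mice. They were found by the gene name printed for each non-control probe of the array. All 10 genes were found, on 22 of 56605 probes (10 of 37074 gene names), and every probe was kept apart. RNA came from 3 tumours labelled P2ry6-/- (labelled knockout below) and 3 labelled P2ry6+/+ (labelled wild-type below), each measured on a one-colour array; the labels name 12 mice per genotype. P2ry6 encodes a receptor for extracellular uridine diphosphate, and the comparison asks what differs between tumours with and without its gene. Mice of both genotypes were treated alike: the shaved back received the mutagen DMBA once (195 nmol), and afterwards TPA, which promotes tumour growth, at 16 nmol per dose and 2 doses a week up to week 22. The labels give no age and no strain, do not say how P2ry6 was deleted, and do not say whether each tumour came from a different mouse, so a p-value here measures only the spread between these samples, which may be partly technical.

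The sebaceous gland is an appendage of the hair follicle whose cells, the sebocytes, fill with lipid and burst to release sebum onto the skin. Sebum is made by building fatty acids, lengthening and desaturating them, and reducing some to fatty alcohols. Fatty alcohols are joined to fatty acids as wax esters, and fatty acids to sterols and glycerol as cholesteryl esters and triacylglycerols. Scd1 is known for this tissue because mice that lack it have shrunken sebaceous glands, and Mc5r because mice that lack it produce less sebum. In whole tumours, fewer sebocytes and less RNA per sebocyte cannot be told apart.

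Between 54.2% and 59.4% of non-control spots on each array were well above background. Each value below is a log2 signal relative to that array's 75th percentile, so 0 lies at that percentile, and levels are compared between arrays at a probe. The brightness of different probes served only to choose which probe stands for a gene and which genes of a list are named, and is not read as a difference in expression. The brighter P2ry6 probe (chr7:108086152-108086211, mm9) averaged 0.57 ± 0.13 in labelled knockout tumours and 0.17 ± 0.33 in labelled wild-type tumours (SD, n = 3 each; limma adjusted p = 0.466). The other averaged -0.70 ± 0.25 in labelled knockout tumours and -1.24 ± 0.37 in labelled wild-type tumours (SD, n = 3 each; limma adjusted p = 0.411). Neither probe was lower under the knockout label, and at the brighter one all 3 labelled knockout tumours read above the labelled wild-type tumours. The deleted part of the gene is not stated, so the probes may lie outside it and do not check the labels, which every direction below follows. Keratinocyte markers were bright in all 6 tumours, with a list mean of 7.68 to 7.76 in labelled knockout tumours and 7.48 to 7.66 in labelled wild-type tumours.

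The sequences of the stearoyl-CoA desaturase probes are shown first, because the Scd3 probes disagreed with each other. One of them, A_55_P2099594 (chr19:44289995-44290054, mm9, plus strand), is annotated in the array files to transcripts of both Scd3 and Scd1, so its signal belongs to the pair. It is printed whole, as a 60-base probe, and for the others the first 30 bases are given. All are in lower case because no base was singled out.
Scd3 and Scd1, A_55_P2099594: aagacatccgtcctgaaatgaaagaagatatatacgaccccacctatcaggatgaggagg
Scd3, A_55_P2052759: ataaagtcaaccataggtcaagaggcagag
Scd3, A_55_P2727843: ccgaaaagaagcacccatgttgtatagtgt
Scd1, A_52_P682382: actcctgggctaagtatctgacagtctcac
The Awat1 probe A_66_P117729 (chrX:97773128-97773187, mm9, plus strand) is the only probe of that wax synthase gene on the array, and all Awat1 values rest on it.
Awat1, A_66_P117729: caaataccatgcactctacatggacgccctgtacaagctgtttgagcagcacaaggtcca

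One tumour stood out for the whole group of genes. Labelled wild-type replicate 2 had the highest signal of the 6 arrays at 21 of the 22 member probes, and labelled wild-type replicate 1 at the remaining probe, a dim one of Soat1. Over all tested probes, labelled wild-type replicate 2 was the highest at 14.3%. Labelled wild-type replicate 3 was the lowest of its genotype at 21 of 22 probes. Among the labelled knockout tumours, replicate 3 was the lowest at 15 probes and replicate 2 the highest at 11, counts that include background readings. At the 10 probes above background on all 6 arrays, the lowest labelled knockout tumour was replicate 3 at 5 and replicate 1 at 4. Labelled knockout replicate 2 was the highest of its genotype at 6 of those 10. The spread among the labelled wild-type tumours was often larger than the difference between the genotypes, so the differences at the tested member probes are also given without replicate 2.

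**Figure D1:**
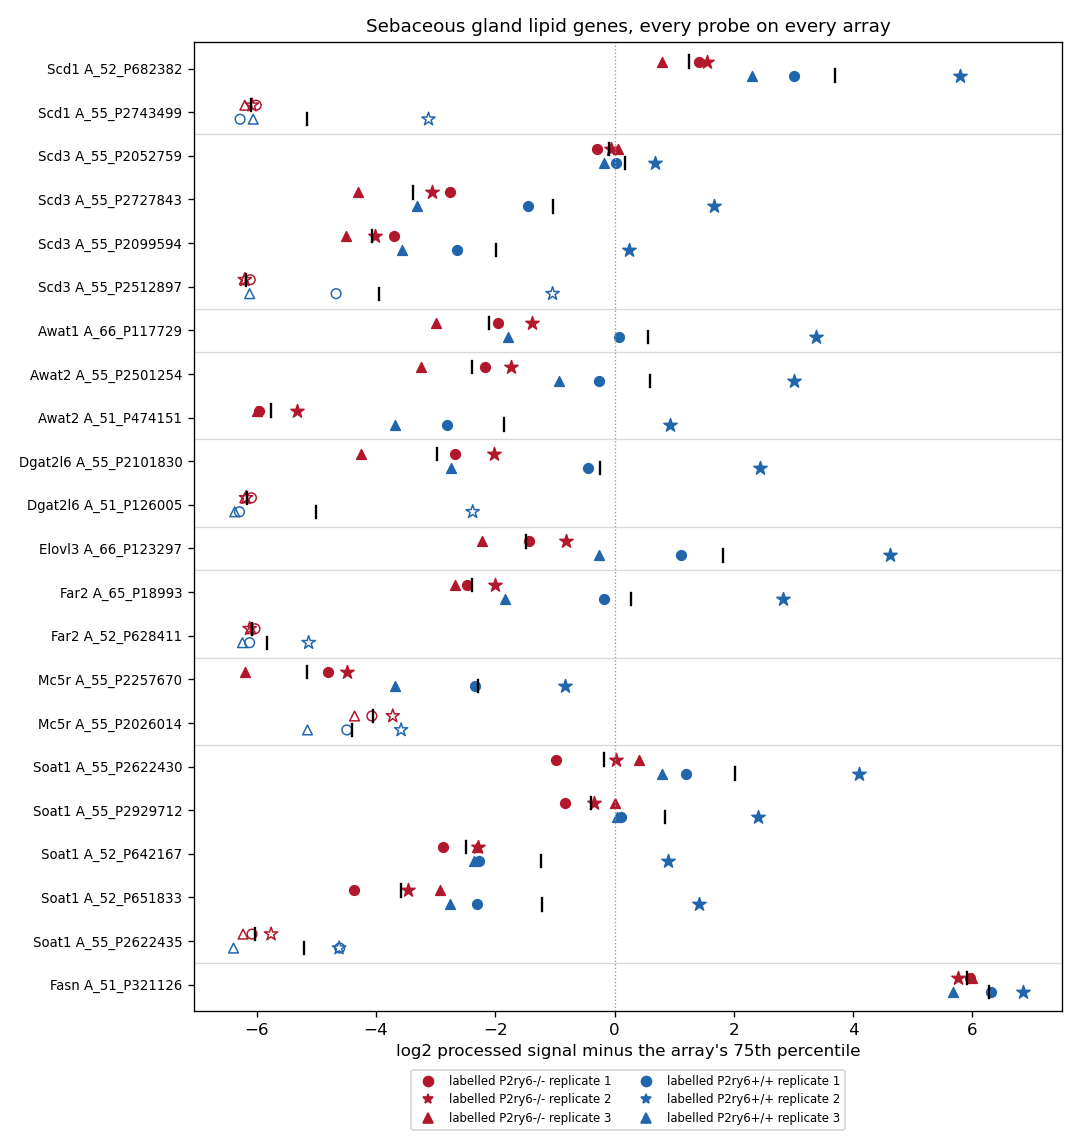
Signal of all 22 probes of the 10 genes on the 6 arrays, on a log2 scale on which 0 is the array's 75th percentile; points are tumours, black ticks are group means, and open symbols mark the 6 probes that did not pass the filter on dim probes. Labelled wild-type replicate 2 (blue star) is the rightmost point at 21 of the 22 probes.

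Scd1, the desaturase that makes monounsaturated fatty acids, was well above background on all 6 arrays at 1 of its 2 probes. That probe, A_52_P682382 (chr19:44469387-44469446, mm9, minus strand), read 1.42, 1.55 and 0.79 in labelled knockout replicates 1, 2 and 3, against 3.01, 5.79 and 2.30 in the labelled wild-type tumours, in the same order. The genotypes did not overlap, and labelled wild-type replicate 2 was 8.81-fold above the mean of the other labelled wild-type tumours. The difference was -2.45 on the log2 scale (SE 0.84, 5.46-fold lower in labelled knockout tumours), and it did not pass over all probes (limma adjusted p = 0.319). Without labelled wild-type replicate 2 it was -1.40 (limma adjusted p = 0.138). A second Scd1 probe, A_55_P2743499, was well above background only in labelled wild-type replicate 2, at -3.12.

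Scd3 encodes a desaturase that in mice is largely restricted to sebaceous and other lipid-secreting glands. Its brightest probe, A_55_P2052759 (chr19:44318249-44318308, mm9, plus strand), read -0.29, -0.06 and 0.06 in labelled knockout tumours and 0.03, 0.68 and -0.17 in labelled wild-type tumours. The groups overlapped, with a difference of -0.28 (SE 0.25, limma adjusted p = 0.682; -0.03 without labelled wild-type replicate 2). A_55_P2727843, well above background in 2 of 3 labelled knockout tumours, behaved otherwise. It read -2.76, -3.07 and -4.31 in labelled knockout tumours against -1.46, 1.67 and -3.32 in labelled wild-type tumours. There labelled wild-type replicate 2 stood 16.7-fold above the other labelled wild-type tumours, replicate 3 lay within the labelled knockout range, and the difference was -2.35 (SE 1.17, limma adjusted p = 0.461; -0.99 without replicate 2). The probe shared with Scd1 was well above background in only 1 of 3 labelled knockout tumours. It differed by -2.08 (SE 0.89, limma adjusted p = 0.402; -0.97 without labelled wild-type replicate 2). The last probe, A_55_P2512897, was above background only in labelled wild-type replicate 2, at -1.04. The probes of this gene therefore give no single answer: 1 was nearly flat and the others followed labelled wild-type replicate 2.

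Fasn, the synthase that builds palmitate in most cells, varied little. Its probe A_51_P321126 (chr11:120668460-120668519, mm9, minus strand) read 5.96, 5.76 and 6.0 in labelled knockout tumours and 6.31, 6.84 and 5.68 in labelled wild-type tumours. Replicate 2 was again the highest, replicate 3 of the same genotype was the lowest of all 6, and the groups overlapped. The difference was -0.37 (SE 0.29, limma adjusted p = 0.644), with -0.09 without labelled wild-type replicate 2 and -0.67 without replicate 3.

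Elovl3, an elongase of very long chain fatty acids known from sebaceous glands and brown fat, had the largest difference among the probes above background on all 6 arrays. A_66_P123297 (chr19:46209325-46209384, mm9, plus strand) read -1.44, -0.81 and -2.23 in labelled knockout tumours, against 1.11, 4.61 and -0.26 in labelled wild-type tumours. The genotypes did not overlap, although labelled wild-type replicate 3 and labelled knockout replicate 2 lay close together. The difference was -3.32 (SE 1.15, 9.95-fold lower in labelled knockout tumours; limma adjusted p = 0.323), and -1.92 without labelled wild-type replicate 2. The labelled wild-type tumours alone spanned 4.87 on the log2 scale, more than this difference.

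The genes that make fatty alcohols and wax esters shared, at their tested probes, the order of tumours within each genotype, with replicate 2 the highest and replicate 3 the lowest of both. Far2, a fatty acyl-CoA reductase that supplies the fatty alcohols, read -2.48, -2.01 and -2.68 at A_65_P18993 (chr6:148124346-148124405, mm9, plus strand) in labelled knockout tumours, against -0.18, 2.83 and -1.84 in labelled wild-type tumours. The groups just failed to overlap, and the difference was -2.66 (SE 1.05, limma adjusted p = 0.370; -1.38 without labelled wild-type replicate 2). Another Far2 probe, A_52_P628411, was not well above background on any array. Awat1, an acyltransferase that joins fatty alcohols to fatty acids, read -1.95, -1.39 and -3.0 in labelled knockout tumours, against 0.07, 3.38 and -1.79 in labelled wild-type tumours. Labelled wild-type replicate 3 lay among the labelled knockout tumours, and the difference was -2.66 (SE 1.21, limma adjusted p = 0.424; -1.25 without replicate 2).

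Awat2, the second wax synthase gene, also acts on retinol and diacylglycerol. The brighter of its probes, A_55_P2501254 (chrX:97597834-97597893, mm9, minus strand), read -2.17, -1.74 and -3.25 in labelled knockout tumours and -0.26, 3.00 and -0.94 in labelled wild-type tumours. No tumour crossed over, and the difference was -2.99 (SE 0.99, 7.93-fold lower in labelled knockout tumours; limma adjusted p = 0.308; -1.79 without labelled wild-type replicate 2). The neighbouring probe A_51_P474151, which shares 13 bases of target with it, was well above background in 0 of 3 labelled knockout tumours and in all 3 labelled wild-type tumours. It read -5.96, -5.33 and -6.0 in labelled knockout tumours, against -2.81, 0.93 and -3.68 in labelled wild-type tumours. It was at least 4.06-fold lower in labelled knockout tumours, and at least 1.55-fold lower without labelled wild-type replicate 2. The bound sets the labelled wild-type mean against the dimmest signal called above background. The limma fit used the background readings themselves (limma adjusted p = 0.252). With dim readings raised to that dimmest signal, the difference was -2.02 (limma adjusted p = 0.493). Dgat2l6, a further acyltransferase of the same family, read -2.67, -2.03 and -4.25 at A_55_P2101830 (chrX:97741165-97741224, mm9, plus strand) in labelled knockout tumours, the last of them not well above background. In labelled wild-type tumours it read -0.44, 2.44 and -2.75. Labelled wild-type replicate 3 was again within the labelled knockout range, and the difference was -2.74 (SE 1.25, limma adjusted p = 0.425; -1.39 without replicate 2). Its other probe, A_51_P126005, was above background only in labelled wild-type replicate 2, at -2.38.

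Soat1 encodes the enzyme that esterifies cholesterol in many cell types, sebocytes among them. Of its 5 probes, A_55_P2622430 (chr1:158360916-158360975, mm9, minus strand) was the brightest, with -0.99, 0.03 and 0.41 in labelled knockout tumours and 1.20, 4.09 and 0.79 in labelled wild-type tumours. The genotypes did not overlap, and the difference was -2.21 (SE 0.86, limma adjusted p = 0.362; -1.18 without labelled wild-type replicate 2). Among the labelled knockout tumours the order was not that of the wax genes, since replicate 1 and not replicate 3 was the lowest here. Probe A_55_P2929712 (chr1:158376748-158376807, mm9, minus strand) gave a smaller difference of -1.25 (SE 0.63, limma adjusted p = 0.470), and -0.47 without labelled wild-type replicate 2. A_52_P651833 (chr1:158362411-158362470, mm9, minus strand), well above background in 2 of 3 labelled knockout tumours, gave -2.37 (SE 1.06, limma adjusted p = 0.419; -1.05 without labelled wild-type replicate 2). At A_52_P642167 the groups overlapped, and a difference of -1.25 (SE 0.83, limma adjusted p = 0.581) became -0.18 without that tumour. The fifth probe, A_55_P2622435, was not well above background on any array. The probes at 158362411 and 158376748 are printed here because they target separate stretches of the gene and differ in size of effect.
Soat1, A_52_P651833: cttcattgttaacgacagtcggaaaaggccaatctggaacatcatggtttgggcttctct
Soat1, A_55_P2929712: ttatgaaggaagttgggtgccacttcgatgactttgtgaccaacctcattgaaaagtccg

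Mc5r, a melanocortin receptor on sebocytes, was dim. Probe A_55_P2257670 (chr18:68501954-68502013, mm9, plus strand) read -4.80, -4.48 and -6.20 in labelled knockout tumours, 0 of 3 of them well above background, and -2.34, -0.84 and -3.68 in labelled wild-type tumours, all 3 well above it. It was at least 3.01-fold lower in labelled knockout tumours, and at least 1.82-fold lower without labelled wild-type replicate 2. The limma adjusted p was 0.233 on the background readings themselves. It was 0.377 with dim readings raised to the dimmest signal called above background. This probe is annotated to a predicted transcript variant that the array files list as misc RNA, and the probe annotated to the coding transcript, A_55_P2026014, was well above background only in labelled wild-type replicate 2. It averaged -4.05 ± 0.32 in labelled knockout tumours and -4.40 ± 0.79 in labelled wild-type tumours (SD, n = 3 each), mostly background readings with the opposite sign.

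Of the 22 probes, 16 passed the filter, which kept a probe that was well above background in every tumour of at least 1 genotype, and these covered all 10 genes. Of the 16, 0 passed limma's adjusted threshold of 0.05, against 0.145% of all tested probes (43 of 29726; 26 or 0.0875% were lower and 17 or 0.0572% higher in labelled knockout tumours). At an unadjusted p under 0.05, 7 of the 16 were lower and 0 higher, and 4.89% of all tested probes were lower by that rule. More than 2-fold lower were 14 of the 16, beside 2.84% of all tested probes. Every labelled knockout tumour lay below every labelled wild-type tumour at 10 of the 16, beside 6.91%. The members were chosen with earlier results of these data known, so the shares here and below are not independent of the data. The filter admits a probe through the genotype in which it is bright, so these counts lean towards a difference: 6 of the 16, of Scd3 (2 probes), Awat2, Dgat2l6, Mc5r and Soat1, passed only through the labelled wild-type tumours. Among the 10 probes above background on all 6 arrays, which covered 8 genes, 10 had a negative difference, 8 were more than 2-fold lower in labelled knockout tumours and 5 were lower at an unadjusted p under 0.05. Over all probes of that kind, 1.72% were more than 2-fold lower and 3.95% were lower at that p. The adjusted threshold was passed by 0 of the 10, beside 0.0219% of such probes. Every labelled knockout tumour lay below every labelled wild-type tumour at 6 of the 10, beside 6.04% of such probes. The median difference was -2.33 over those 10 member probes and -2.22 over all 22 with no filter. Over all tested probes the median was 0.02, and over all probes with no filter it was 0.18.

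Leaving out labelled wild-type replicate 2 kept all 16 tested member probes negative but narrowed the differences. Their median was then -1.22, against -2.41 with it. Still more than 2-fold lower were 10 of the 16, beside 3.53% of all probes tested in that setting. Among them were 6 of the 10 probes above background on all 6 arrays. Of the 16, 8 were lower at an unadjusted p under 0.05, against 7.64% of all probes, and 10 had every labelled knockout tumour below the remaining labelled wild-type tumours, against 17.8%. The adjusted threshold was passed by 0 of them, and 187 of all probes (0.623%) passed it without that tumour. The smallest adjusted p of any member probe in any of the alternatives was 0.051, for Awat2 probe A_51_P474151 without labelled wild-type replicate 2.

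**Figure D2:**
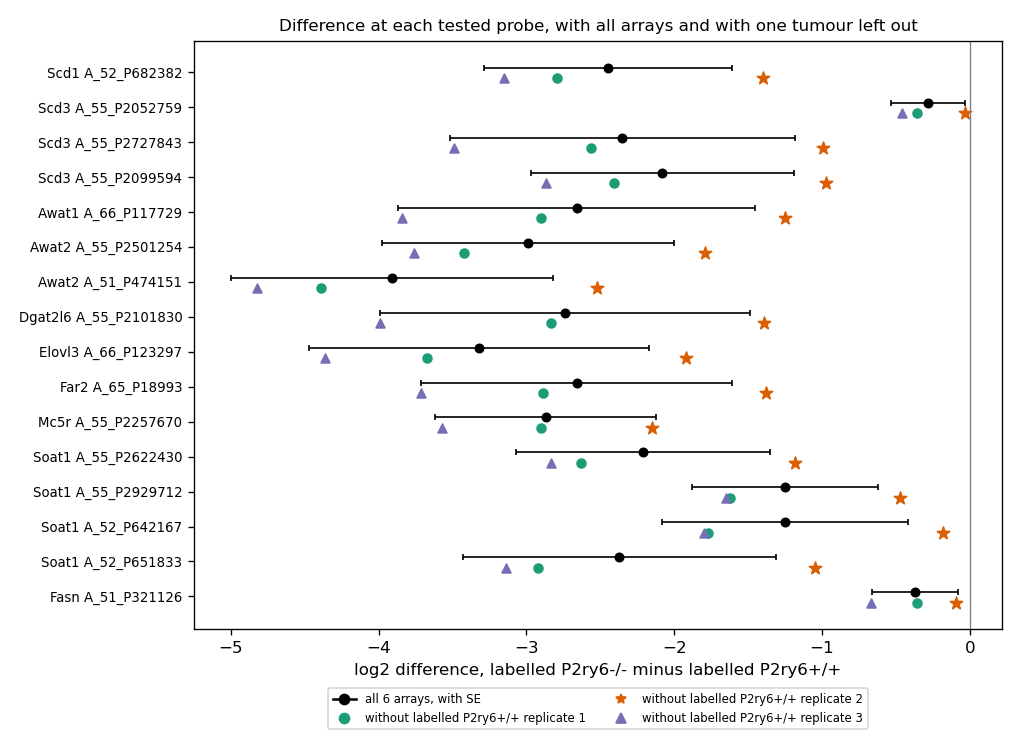
Log2 difference of labelled knockout minus labelled wild-type at the 16 tested probes, with all 6 arrays (black, bars are the SE of the limma fit) and after leaving out each labelled wild-type tumour in turn (coloured symbols). At Mc5r and Awat2 A_51_P474151 no labelled knockout reading was well above background. At Scd3 A_55_P2099594 only 1 of 3 was, and at Scd3 A_55_P2727843, Dgat2l6 and Soat1 A_52_P651833 2 of 3 were. All the points lie below 0, and those without replicate 2 lie nearest to it, at -0.03 to -2.52.

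Other genes of sebum and lipid droplets had smaller differences on the whole. Of 22 listed, 17 were tested at their brightest probe, 13 with a negative and 4 with a positive difference (labelled knockout minus labelled wild-type), with a median of -0.68 (-0.53 without labelled wild-type replicate 2). Of the 17, 8 were lower at an unadjusted p under 0.05, beside 4.89% of all tested probes. The adjusted threshold was passed by 0 of them, beside 0.145% of all tested probes. The 3 brightest, taken for their level and not for their difference, were the fatty acid-binding protein gene Fabp5 with 0.20, the elongase gene Elovl4 with -0.38 and the triacylglycerol synthase gene Dgat2 with 0.36. The next 3 were chosen after their values were seen. Fa2h, which hydroxylates fatty acids, read 0.38, 0.62 and -1.10 in labelled knockout tumours, against 2.89, 5.79 and 1.37 in labelled wild-type tumours (difference -3.38, SE 1.07, limma adjusted p = 0.296; -2.16 without labelled wild-type replicate 2). Mgst1, a glutathione transferase gene abundant in mouse sebocytes, read 3.64, 3.37 and 2.93 in labelled knockout tumours, against 4.40, 5.90 and 4.42 in labelled wild-type tumours (difference -1.59, SE 0.43, limma adjusted p = 0.241; -1.10 without that replicate). Cidec, a lipid droplet gene that is also a fat-cell marker, differed by -4.34 (SE 0.99, limma adjusted p = 0.196; -3.13 without that replicate). It was well above background in only 2 of 3 labelled knockout tumours, so this difference rests partly on a background reading.

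Genes of the sebaceous duct, its progenitors and sebocyte regulation were mixed as well. Of 11 listed, 10 were tested, 8 with a negative and 2 with a positive difference, with a median of -0.58 and 0 past the adjusted threshold. Krt79, a keratin of the sebaceous duct, read 4.60, 6.89 and 3.35 in labelled knockout tumours and 6.71, 8.56 and 6.88 in labelled wild-type tumours, so labelled knockout replicate 2 reached the labelled wild-type range (difference -2.44, SE 0.91, limma adjusted p = 0.349; -1.85 without labelled wild-type replicate 2). Srebf1, which encodes a transcription factor for lipid synthesis genes, differed by -0.20 and the progenitor marker Plet1 by -0.40, against -0.09 and 0.30 without labelled wild-type replicate 2. Pparg, the nuclear receptor gene required for sebocyte and fat-cell differentiation, was chosen after its values were seen. It read -0.12, -1.15 and -0.55 in labelled knockout tumours, against 2.07, 2.87 and 4.11 in labelled wild-type tumours. Its highest value was in labelled wild-type replicate 3, which was the lowest labelled wild-type tumour at all 16 tested member probes. The difference was -3.62 (SE 0.52, limma adjusted p = 0.083, with a range of 0.046 to 0.235 over the alternatives).

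Genes of general fatty acid synthesis and elongation were mostly negative, with a small median difference. Of 19 listed, 18 were tested, 14 negative and 4 positive, with a median of -0.30 (-0.11 without labelled wild-type replicate 2) and 0 past the adjusted threshold. At an unadjusted p under 0.05, 3 were lower and 2 higher, and 4.89% of all tested probes were lower by that rule. The 3 brightest were the elongase gene Elovl1 with -0.06, the dehydratase gene Hacd3 with 0.04 and the citrate lyase gene Acly with -0.31. The next 3 were chosen after their values were seen. Acacb, which encodes an acetyl-CoA carboxylase, differed by -2.08 (SE 0.81, limma adjusted p = 0.364), and by -1.17 without labelled wild-type replicate 2. Another tested Acacb probe differed by only -0.14. Acsl1, which encodes a fatty acyl-CoA synthetase, differed by 0.78 (SE 0.21, limma adjusted p = 0.243). Elovl6, which lengthens palmitate, read 3.12, 2.65 and 2.55 in labelled knockout tumours, against 4.39, 5.68 and 3.70 in labelled wild-type tumours (difference -1.82, SE 0.48, limma adjusted p = 0.234; -1.28 without that replicate). Lipid genes of the epidermal barrier were mostly positive, with 12 of 16 above 0 and 4 below, a median of 0.20 (0.32 without labelled wild-type replicate 2) and 0 past the adjusted threshold. Their brightest members were the ceramide synthase gene Cers3 with 0.16, the sphingomyelinase gene Smpd1 with 0.21 and Dgat2, which stands in both lists. Of 13 melanocortin system genes only 4 were tested, all with small positive differences (median 0.19), and Mgrn1, Atrn and Agrp, the brightest of these, gave 0.23, 0.13 and 0.28.

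**Figure D3:**
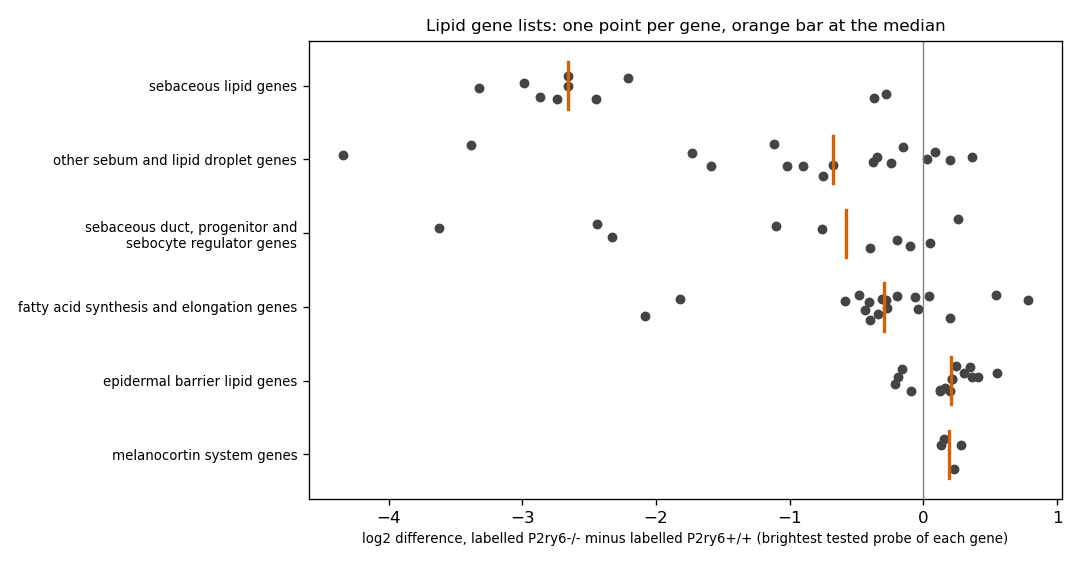
Log2 difference of labelled knockout minus labelled wild-type for each tested gene of 6 lipid-related lists, at its brightest tested probe; the orange bar is the list's median. The sebaceous lipid genes lie near -2.66 apart from Scd3 and Fasn, and the barrier lipid genes lie around 0.20.

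Markers of other tissues were high in the same tumour. The mean level over the 10 genes, each at its brightest tested probe, was -0.94, -0.52 and -1.44 in the labelled knockout tumours, and 0.85, 3.28 and -0.27 in the labelled wild-type tumours, both in replicate order. Adipocyte markers averaged -2.22, -2.31 and -2.24 in labelled knockout tumours, against 0.73, 1.68 and -0.15 in labelled wild-type tumours. Hair follicle markers averaged -2.07, 0.11 and -2.03 in labelled knockout tumours, against 1.79, 3.01 and -0.28 in labelled wild-type tumours. Fat and hair markers ranked the labelled wild-type tumours in the order seen at the sebaceous genes, and hair markers also shared the highest labelled knockout tumour, replicate 2. Skeletal muscle markers averaged -3.83, -4.11 and -3.51 in labelled knockout tumours, against -0.29, 3.97 and 1.1 in labelled wild-type tumours, with replicate 1 and not replicate 3 the lowest labelled wild-type tumour. These means include genes that passed the filter only through the labelled wild-type tumours. The median difference was -3.11 over the 11 tested adipocyte genes and -0.35 over the 5 above background on all 6 arrays, 3 of them negative. For hair follicle genes it was -2.20 over 13 and -0.06 over 6, 4 of them negative, and for muscle genes -5.18 over 12 and -2.81 over 5, all negative. Without labelled wild-type replicate 2 the medians over all tested genes were -2.30, -1.22 and -3.82 for the adipocyte, hair follicle and muscle lists. The part of these tissues in the sebaceous gene differences was not tested.

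Within those lists, 9 of 11 tested adipocyte genes had a negative difference. Of these, 3 passed the adjusted threshold, beside 0.0875% of all tested probes that passed as lower. They were Adipoq, Cfd and Car3, which encode adiponectin, adipsin and a carbonic anhydrase (limma adjusted p = 0.007, 0.008 and 0.016). In labelled knockout tumours they were at least 4.66-fold, 53.3-fold and 39.6-fold lower (at least 4.23-fold, 44.0-fold and 21.6-fold without labelled wild-type replicate 2). In the labelled knockout tumours, 5 of the 11 (Adipoq, Cfd, Car3, Retn and Cd36) never reached the level called well above background, and Plin1 was not tested. The p-values of Adipoq, Cfd and Car3 come from a fit on those background readings and do not test the bounds. The 3 brightest adipocyte genes gave -0.55 for Fabp4, -0.35 for Pnpla2 and 0.26 for Lipe. Plin4, a lipid droplet gene named after its values were seen and above background on all 6 arrays, differed by -3.06 (SE 0.67, limma adjusted p = 0.189; -2.30 without labelled wild-type replicate 2) with no overlap. Of 13 hair follicle genes 11 were negative and 0 passed. Krt71 and Krt25, keratin genes of the inner root sheath, gave -6.56 and -5.96, and -5.24 and -4.66 without labelled wild-type replicate 2. They were well above background in only 2 and 1 of the labelled knockout tumours, so these differences rest partly on background readings. Krt85, Trps1 and Tchh, the brightest, differed by 0.26, 0.21 and -2.20 (Trps1 by -0.23 and Tchh by -1.22 without labelled wild-type replicate 2). All 12 muscle genes had a negative difference, and Myh4 and Myh8, which encode myosin heavy chains, passed (at least 82.1-fold lower for Myh4 with a limma adjusted p of 0.009, and at least 166-fold for Myh8 with a limma adjusted p of 0.030), or at least 49.2-fold and 77.9-fold without labelled wild-type replicate 2, although another tested Myh4 probe differed by 0.23. Across the alternatives the limma adjusted p of Adipoq, Cfd, Car3, Myh4 and Myh8 reached 0.121, 0.066, 0.142, 0.088 and 0.148, so all 5 calls were lost in at least 1 of them. Acta1, encoding muscle actin, differed by -4.15 without passing (-2.80 without labelled wild-type replicate 2). Ckm, encoding creatine kinase, was at least 4.60-fold lower, also without passing (at least 1.95-fold without that replicate). The brightest muscle genes Tnni2, Mylpf and Tnnt3 differed by -2.15, -2.81 and -5.79, and by -1.29, -1.70 and -4.46 without that replicate, where Tnnt3 passed (limma adjusted p = 0.038). Another tested Mylpf probe differed by 0.01. Keratinocyte and macrophage markers had medians of 0.14 and 0.05, with 7 of 11 and 6 of 10 positive and 0 past the threshold. Krt14, Krt16 and Krt6a gave 0.03, 0.40 and -0.13, and Lyz2, Itgam and Csf1r gave -0.45, 0.48 and 0.20.

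**Figure D4:**
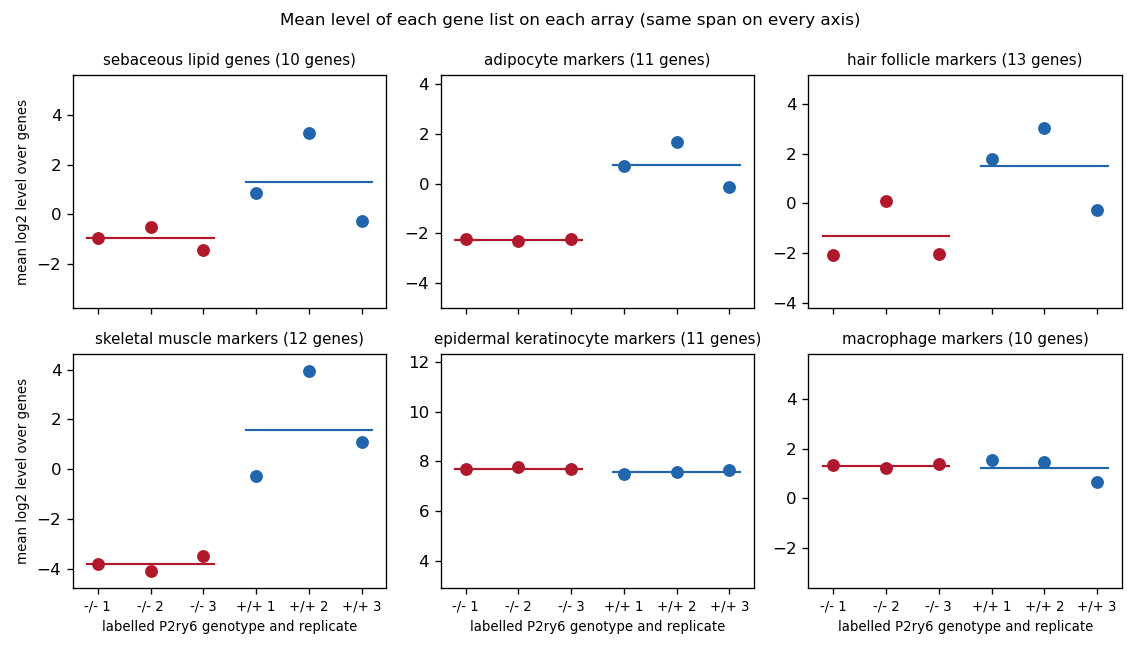
Mean log2 level of the sebaceous lipid genes and 5 marker lists on each array, relative to the 75th percentile; each point is a tumour, lines are group means, and every axis spans the same range. Labelled wild-type replicate 2 is highest for sebaceous, adipocyte, hair follicle and muscle genes, and the keratinocyte list stays between 7.48 and 7.76.

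The member genes' profiles were compared with those of 15148 other named genes. The profile was the mean of the standardized values of 8 members, leaving out Fasn and Soat1, over the 6 arrays. The 5 nearest genes by Pearson's r were Pctp (r = 0.996), Acacb (r = 0.993), Cd36 (r = 0.993), Mgll (r = 0.993) and Apmap (r = 0.991). Cd36 was well above background on 3 of the 6 arrays, 0 of them labelled knockout, so its r rests partly on background readings. These values rest on 6 arrays with 1 high tumour among them, and 86 genes reached r = 0.95 or more. Pctp, the nearest, read -0.82, -0.44 and -1.01 in labelled knockout tumours, against 1.26, 4.20 and -0.24 in labelled wild-type tumours. Fasn and the brightest Soat1 probe, which were not in the profile, gave r = 0.876 and r = 0.929.

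RefSeq promoters (GRCm38.p6, 250 bases before to 50 bases after the start of the gene) were given for 7 of the 10 genes, 8 promoters in all. They were searched on both strands for the NF-Y box CCAAT, the Sp1 box GGGCGG, the sterol response element TCACNCCAC and the DR1 repeat bound by PPAR receptors, which is AGGTCA, any 1 base and AGGTCA again. Of all 32851 promoters of that length, 37.4%, 35.7%, 1.24% and 0.0396% held them, in that order. Neither of the last 2 was found in a member promoter. Fasn is shown with 2 genes of the X-linked wax synthase cluster, because Fasn varied little between tumours and they varied widely. Capitals mark the motifs, in Fasn 3 NF-Y boxes, 2 of which overlap on opposite strands, and in Awat1 1 NF-Y box. The Fasn promoter was 69.3% G and C, against 53.7% in Awat1 and 46.7% in Dgat2l6. None of the motifs lay in the Dgat2l6 window. The promoters not shown were mixed. Far2, at 66.0% G and C, held 2 Sp1 boxes, and Soat1, at 62.0%, held 1 NF-Y box and 1 Sp1 box. Each Awat2 promoter held 1 NF-Y box, 1 of them also held 1 Sp1 box, and Scd3 held none. The printed promoters therefore do not stand for all members, and a link between motifs or G and C content and variation between tumours was not tested. These matches describe letters only.
Awat1, chrX:100571997-100572296, plus strand: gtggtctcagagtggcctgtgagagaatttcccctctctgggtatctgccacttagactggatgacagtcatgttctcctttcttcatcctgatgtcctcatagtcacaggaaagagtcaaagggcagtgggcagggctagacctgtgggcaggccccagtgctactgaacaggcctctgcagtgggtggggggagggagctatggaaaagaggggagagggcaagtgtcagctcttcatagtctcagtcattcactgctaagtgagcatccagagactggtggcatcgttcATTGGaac
Dgat2l6, chrX:100524588-100524887, plus strand: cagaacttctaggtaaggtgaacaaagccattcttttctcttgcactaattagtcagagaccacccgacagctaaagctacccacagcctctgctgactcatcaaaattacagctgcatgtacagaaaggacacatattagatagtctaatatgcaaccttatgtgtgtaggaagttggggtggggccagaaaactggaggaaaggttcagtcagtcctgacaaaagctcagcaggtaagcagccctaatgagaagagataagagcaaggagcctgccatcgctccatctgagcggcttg
Fasn, chr11:120824498-120824797, minus strand: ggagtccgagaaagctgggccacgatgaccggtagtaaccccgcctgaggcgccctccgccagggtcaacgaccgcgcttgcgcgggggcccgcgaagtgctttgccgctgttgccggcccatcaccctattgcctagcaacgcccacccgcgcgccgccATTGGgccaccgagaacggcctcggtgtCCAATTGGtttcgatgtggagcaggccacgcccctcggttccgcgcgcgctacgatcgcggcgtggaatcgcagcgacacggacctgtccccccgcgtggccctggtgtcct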

How the data were processed

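The authors deposited scanner files whose spot values are linear intensity; per the file headers, background subtraction and detrending were applied to the signal used, and dim spots carry surrogate values. Per the submitters' processing notes, the software was Agilent Feature Extraction 10.7.1.1. The authors also deposited log2 values for the series, with a median of 4.969 in every column; their normalization is not given in the sources, and they served as an alternative. From the scanner files, log2 processed signal was averaged over a probe's spots without outlier flags (68 to 184 spots per array left out, 0 saturated) and set against the 75th percentile of each array's non-control probes, 277.1 to 299.6 units on labelled knockout arrays and 321.7 to 367.9 units on labelled wild-type arrays, by subtraction. Labels name 0.2 ug of RNA per sample.

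Genotypes were compared at 29726 probes with limma 3.58.1 (lmFit and eBayes, R 4.3.3), two-sided, adjusted by Benjamini-Hochberg over all of them; the fit was tested on simulated data. With 3 against 3, an exact permutation test cannot go below p = 0.1. A fold is given as a bound where 1 genotype had no array well above background. The p-value beside a bound comes from the fit on all readings, background ones included, and does not test the bound. Other genes are named by a rule: from each list the 3 brightest tested genes and any past the threshold, 6 fixed fat, hair and muscle markers, and the 5 nearest profiles; genes named outside it are said to be chosen after their values were seen. Members and lists were chosen with earlier results of these data known. All arrays lay on 1 slide with 1 scan time; only slide row 2 held both genotypes, labelled knockout replicate 1 and labelled wild-type replicate 3, whose means over the 10 genes were -0.94 and -0.27, and row and genotype otherwise cannot be told apart. Names other than the members' came from RefSeq (GRCm38.p6): accessions named 32989 probes, symbols 10228, synonyms 519, and 12869 kept the array's name.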

Additional observations from a re-analysis of the deposited data

How the results depend on the processing

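Under 18 alternatives, 276 values of single member probes were recomputed, and all 276 kept their negative sign and stayed on the same side of the adjusted threshold; 0 member probes passed in any of them. The median over tested member probes lay between -3.32 and -1.22 when 1 tumour was left out, and was -1.34 after normexp correction and -2.41 in the report's setting; the cause was not tested. Member probes with every labelled knockout tumour below every labelled wild-type tumour numbered 10 of 16 in the report's setting, beside 6.91% of all tested probes. They numbered 6 of 10 when every array had to exceed background, beside 6.04%. The counts were 8 of 16 after normexp correction, 6 of 10 with the brightest probe of each gene, and 10 to 15 of 16 with 1 tumour left out. With a tumour left out, groups separate more easily: without labelled wild-type replicate 2, 17.8% of all probes did so. Shares for the other settings are not given. The count of all probes past the threshold was 43 and varied more: 15 after normexp correction (offset 50), 22 with no filter on dim probes, 147 with array weights, 6 over the probes that all 6 arrays measured above background, and 16 to 187 with 1 tumour left out (23, 21 and 16 without labelled knockout replicates 1, 2 and 3, and 50, 187 and 77 without labelled wild-type replicates 1, 2 and 3). With the labels' replicate number as a block it was 6; same-numbered tumours deviated together with r = 0.096, 0.245 and 0.143, so the numbers were not taken as pairs, although every tumour correlated best with its own number. The slide column as a block was added after the data were examined. Dim probes have no measured level in some tumours, which limits their differences: after normexp correction Mc5r differed by -0.88 and Awat2 probe A_51_P474151 by -1.24, both smaller than the bounds in the report.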
